A study of Homo sapiens with 19 samples.

Results

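A set of 10 genes of macrophage cholesterol transport and lipoprotein handling was followed through a vitamin C (vit C) time course: the apolipoprotein genes APOE, APOC1 and APOC2, the lipase genes LPL and LIPA, the sterol carrier genes NPC2 and OSBPL5, the cholesterol-esterifying enzyme gene SOAT1 and the efflux pump genes ABCA1 and ABCG1. The set was fixed by gene name, 10 of the 31033 gene names on the array, and was measured by 15 of its 50238 probes. The cells were THP-1, a human acute monocytic leukaemia line, differentiated into macrophage-like cells with 30 nM phorbol myristate acetate (PMA), so every group, controls included, had received PMA. Untreated (UT) cells were compared with cells given 0.1 mM vit C for 8, 24, 48 or 96 h. The 19 arrays comprised 2, 3, 2 and 3 UT arrays and 3, 2, 2 and 2 vit C arrays at 8, 24, 48 and 96 h, and each array carried RNA of 1 sample in 1 colour. All samples came from the same cell line, so the tests below measure the spread between cultures of that line only.

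Macrophages take up lipoproteins, free their cholesterol and fatty acids with lipases, and move the cholesterol out of lysosomes with the help of carrier proteins such as NPC2. The cholesterol is then either esterified for storage in lipid droplets, the work of SOAT1, or exported by ABCA1 and ABCG1 to apolipoproteins such as APOE. The liver X receptors (LXRs), nuclear receptors activated by oxysterols, are known to raise ABCA1, ABCG1, the apolipoprotein cluster and several lipid synthesis genes.

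APOE, APOC1 and APOC2 lie in that order on the plus strand of chromosome 19, at chr19:44905796-44909393, chr19:44914325-44919346 and chr19:44946051-44949565 (RefSeq, GRCh38.p14). ABCA1 lies on the minus strand at chr9:104781006-104928155. RefSeq promoter windows were at hand for 8 of the 10 genes. The sequences of the 3 clustered apolipoprotein genes are shown because these neighbours differed in how their levels ran across the arrays, and that of ABCA1 because it is a textbook LXR target and rose strongly with time in both treatments. Each is the 250 bases before an annotated transcript start (for APOC1 one that lies inside the span of the gene), 5′ to 3′ on the gene's own strand, at chr19:44905546-44905795 for APOE, chr19:44914422-44914671 for APOC1, chr19:44945801-44946050 for APOC2 and chr9:104928156-104928405 (minus strand) for ABCA1, with every match to a searched motif in capitals.
APOE: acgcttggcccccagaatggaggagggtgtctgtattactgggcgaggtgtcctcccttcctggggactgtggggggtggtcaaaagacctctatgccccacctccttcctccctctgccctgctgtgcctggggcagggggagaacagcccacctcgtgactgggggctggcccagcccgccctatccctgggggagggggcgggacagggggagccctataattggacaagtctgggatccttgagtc
APOC1: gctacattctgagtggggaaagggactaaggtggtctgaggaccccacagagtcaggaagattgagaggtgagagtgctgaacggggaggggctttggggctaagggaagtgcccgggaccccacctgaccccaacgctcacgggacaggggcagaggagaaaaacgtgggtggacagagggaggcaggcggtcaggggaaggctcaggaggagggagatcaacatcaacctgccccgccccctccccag
APOC2: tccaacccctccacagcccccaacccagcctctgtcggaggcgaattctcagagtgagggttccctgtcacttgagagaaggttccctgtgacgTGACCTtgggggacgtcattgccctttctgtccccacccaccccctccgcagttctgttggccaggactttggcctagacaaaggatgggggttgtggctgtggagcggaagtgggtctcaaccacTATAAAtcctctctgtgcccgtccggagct
ABCA1: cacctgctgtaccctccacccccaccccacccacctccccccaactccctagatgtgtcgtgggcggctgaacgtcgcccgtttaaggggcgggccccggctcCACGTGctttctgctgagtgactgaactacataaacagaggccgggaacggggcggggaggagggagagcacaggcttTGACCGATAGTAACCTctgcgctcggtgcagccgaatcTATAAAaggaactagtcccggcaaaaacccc
The motifs, searched on both strands, were AGGTCA (the core read by many nuclear receptors), CACGTG (an E-box), TGANTCA (AP-1), TCACNCCAC (sterol response element-like), TATAAA, and the LXR element known from ABCA1 (AGGTTA and CGGTCA with 4 bases between them), which was added after the ABCA1 window had been read. They occurred in 12.1%, 6.34%, 6.57%, 0.883%, 10.7% and 0.00285% of 35116 such windows over all genes. The ABCA1 window held the E-box, the TATAAA motif and, as its reverse complement, the LXR element, and it was the only window of the 35116 with the latter. APOC2 held AGGTCA on its minus strand and TATAAA, and APOE and APOC1 held no searched motif. The 13 windows of these 8 genes held no TGANTCA and no TCACNCCAC. A match is a description of letters and was not tested for binding.

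The values below are log2 of the scanner's processed signal minus the 75th percentile of the array, referred to as the level, and a difference of 1 is a 2-fold change. Besides the genes placed above, SOAT1 lies at chr1:179293797-179358680, LIPA at chr10:89213572-89414679, OSBPL5 at chr11:3087107-3165310, NPC2 at chr14:74479935-74493512 and ABCG1 at chr21:42199689-42297244 (GRCh38.p14). Levels were compared only between samples of the same probe, the brightest one of each gene. A gene was called where a probe differed by at least 1 with a Benjamini-Hochberg q of at most 0.05 by limma over all probes tested, and a gene whose probes went in opposite directions was removed from that comparison. The 75th percentile of the signal ran from 296.8 to 923.7 over the arrays and 57.5% to 72.8% of probes were well above background. All 10 genes but ABCG1 were well above background on all 19 arrays. The label of the cells was checked by marker genes: 7 of 8 macrophage markers were well above background on all arrays and their summed level lay between 8.17 and 8.74. Signals were summed before the log, so CSF1R (7.89 to 8.63), the brightest of the list, carried most of the sum. Of the others, CD14 ran from 0.39 to 5.74, CD68 from 1.19 to 3.85, ITGAM from 1.51 to 3.1 and PTPRC from 1.7 to 3.81. SPI1 ran from -1.67 to 0.46, FCGR2A from -2.32 to 0.61 and LYZ from -4.58 to -0.78. Markers of other cell types were mixed. Of the fibroblast list PDGFRA and THY1 were well above background on all 19 arrays, DCN on 14, COL1A1 on 5 and COL1A2 on none. Of the epithelial list KRT8 and KRT18 were so on all arrays, KRT19 on 17 and CDH1 on none, of the T cell list CD3E on all, CD2 on 11, CD3G on 3 and CD3D on none, and of the hepatocyte list ALB, SERPINA1 and TF on all, TTR on 1 and FGB on none.

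The groups were not spread evenly over slides. Slide 1 held the UT arrays at 8, 24 and 48 h and 1 UT array at 96 h, slide 2 the other 2 UT arrays at 96 h with the vit C arrays at 8 and 24 h and 1 at 48 h, slide 3 the other vit C array at 48 h, and slide 4 both vit C arrays at 96 h. Slide and treatment could thus be separated only through the UT arrays at 96 h, and at 96 h the vit C arrays and their slide cannot be told apart. Slide 4 was also the only one scanned on scan day 2, and its arrays had the highest 75th percentiles (806.3 and 923.7, against 296.8 to 638.5 on the others) and the most probes well above background (69.8% and 72.8%, against 57.5% to 68.7%). The part of these differences in the results at 96 h was not tested. Between the UT arrays at 96 h of slide 2 and that of slide 1 the level differed by -1.81 for ABCG1, -1.09 for APOE and -0.44 for ABCA1, and by -0.19 to 0.26 for the other 7 genes. Changes with time in UT cells between 8 and 48 h lay within slide 1, and those in vit C-treated cells between 8 and 24 h within slide 2.

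**Figure D1:**
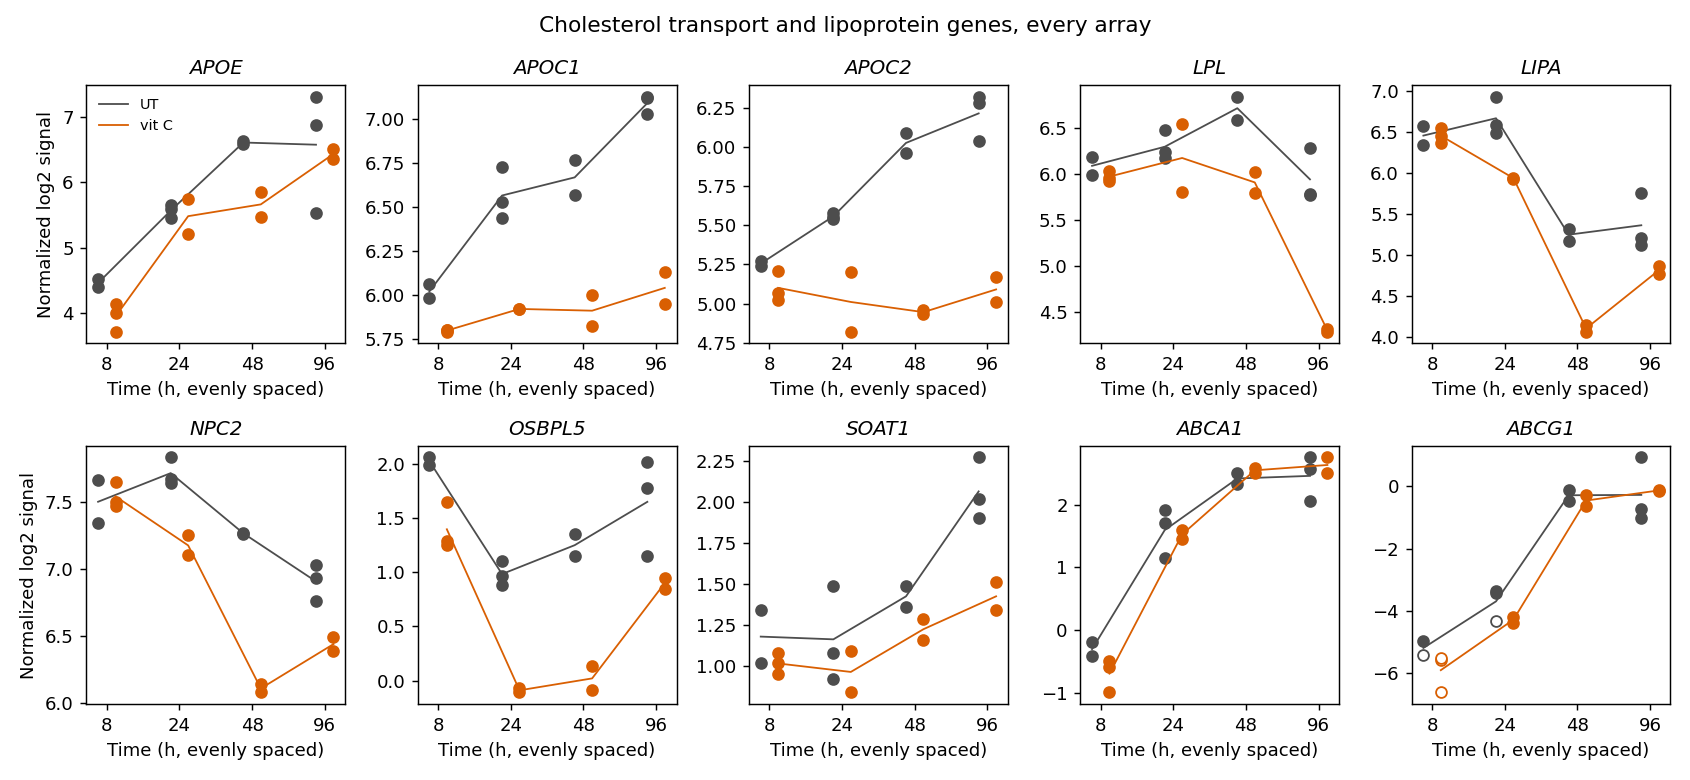
Level of each gene (normalized log2 signal, own scale per panel) on every array against time in h, evenly spaced; grey is UT, orange vit C, lines join group means and open circles mark arrays not well above background. APOC1 reached 7.03 to 7.13 in UT cells at 96 h against 5.95 and 6.13 with vit C, LPL lay at 4.29 and 4.32 at 96 h with vit C, and ABCA1 and ABCG1 rose with time in both courses.

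Did vit C change these genes against UT cells of the same time? At 8 h none of the 10 genes was called, where 0.553% of genes tested were, and ABCA1 was removed for opposing probes. Of all genes, 0.223% were called lower there. At 24 h OSBPL5 was lower, 1 of 10 where 1.67% of genes tested were called and 0.839% were lower. At 48 h APOC2, LIPA, NPC2 and OSBPL5 were lower, 4 of 10 where 3.64% were called and 1.53% were lower. The authors had already listed APOC2, NPC2 and OSBPL5 as lowered at 48 h on these same arrays, so this count is not independent of their result. At 96 h APOC1, APOC2 and LPL were lower, 3 of 10 where 12.8% were called and 10% were lower. None of the 10 was called higher than UT at any time, with 0.33%, 0.835%, 2.1% and 2.73% of all genes called higher at 8, 24, 48 and 96 h. The background at 96 h depended strongly on scaling and on dim probes, as 21.4% of its calls were higher, against 61% once dim probes were dropped, 56% if arrays were quantile-normalized and 50.9% if detected probes alone set the percentile. The median difference of the 10 genes was -0.20, -0.54, -0.87 and -0.59 at 8, 24, 48 and 96 h, beside medians of -0.08, -0.01, -0.07 and -0.05 for all detected genes. With the slide as a fixed block in the fit, the median of the 10 was -0.08, -0.38 and -0.87 at 8, 24 and 48 h. Then 5, 3 and 2 of the 10 genes lay higher with vit C. The levels of the vit C arrays lay below every UT array for 6, 5, 8 and 7 of the 10 genes (at 8 h these include ABCG1, not well above background on any vit C array), against 23.9%, 18.3%, 28.4% and 26.2% of all genes. In bulk RNA a lower level in each cell and fewer cells that express the gene cannot be told apart.

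The summed level of the fibroblast marker list, of which 2 of 5 genes were well above background on all arrays, also moved with treatment. It was 0.82 to 1.48 in UT and 2.36 to 2.61 in vit C-treated cells at 8 h, 1.80 to 2.02 against 2.28 to 2.91 at 24 h, 2.62 to 2.74 against 3.18 to 3.54 at 48 h, and 1.85 to 2.50 against 2.72 to 2.85 at 96 h. The hepatocyte list, of which 3 of 5 genes were well above background on all arrays, measured 0.59 to 0.64 in UT against 0.45 to 0.68 in vit C-treated cells at 8 h, 0.56 to 0.72 against 1.11 to 1.15 at 24 h, 1.15 to 1.20 against 0.62 to 0.67 at 48 h and 1.25 to 1.43 against 0.72 to 0.80 at 96 h. At 48 h the epithelial list was also apart, at 1.68 to 1.74 in UT against 1.36 to 1.36 with vit C, and so was the macrophage list, at 8.43 to 8.50 against 8.56 to 8.64, while both overlapped at the other times. The part of these lists in the results was not tested.

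**Figure D2:**
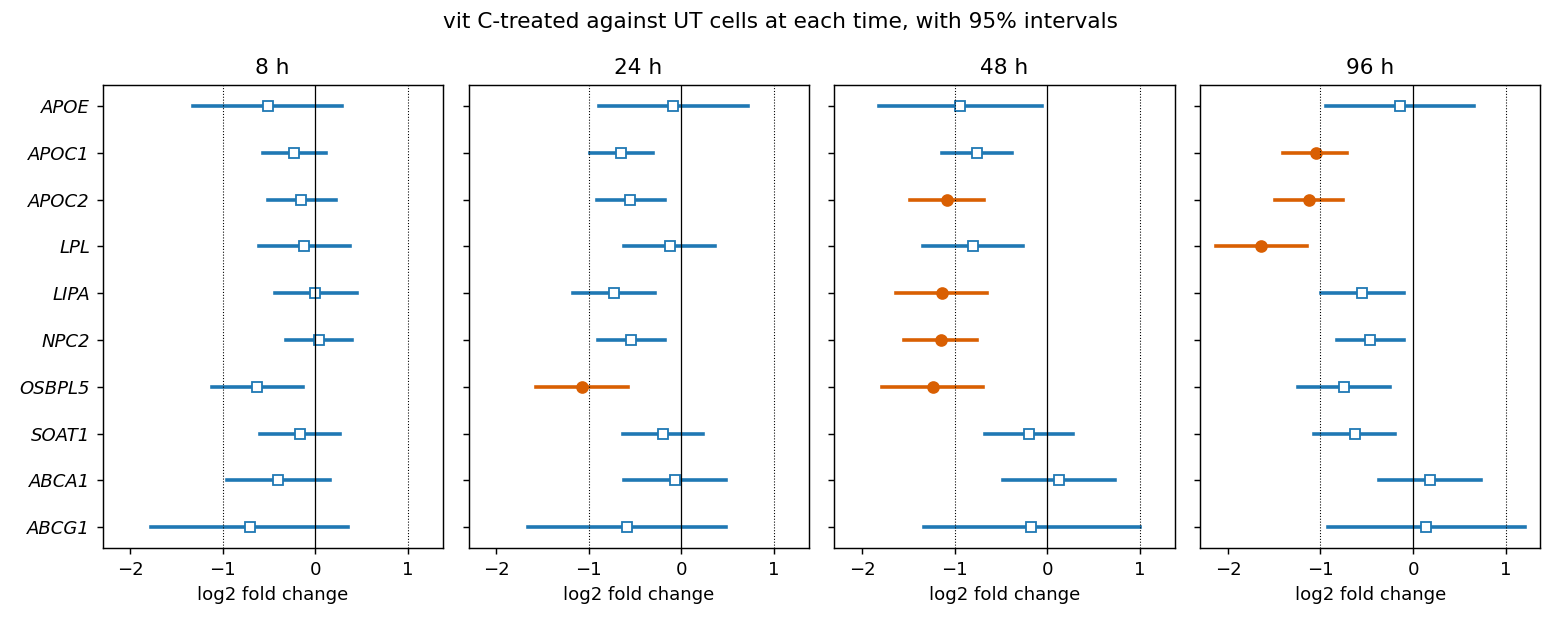
Log2 fold change of vit C-treated against UT cells (x axis) for each gene at 8, 24, 48 and 96 h, with the 95% interval as a line; filled circles are called genes, open squares are not, and dotted lines mark a change of 1. All called genes lie to the left, from -1.05 to -1.64.

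Of the small apolipoproteins, APOC2 was called lower than UT at 48 and 96 h and APOC1 at 96 h. APOC2 is the activator that LPL needs, and APOC1 a small lipoprotein component that hinders lipoprotein clearance. APOC2 measured 5.24 and 5.27 in UT cells at 8 h, 5.55, 5.54 and 5.58 at 24 h, 5.96 and 6.09 at 48 h, and 6.32, 6.28 and 6.04 at 96 h. In vit C-treated cells it measured 5.07, 5.02 and 5.21 at 8 h, 4.82 and 5.20 at 24 h, 4.93 and 4.96 at 48 h, and 5.17 and 5.01 at 96 h. Every vit C array lay below every UT array of its time, and the difference between group means was wider at 48 and 96 h than at 8 h. The difference was -1.08 ± 0.19 (SE; q = 0.00698; 2.11-fold) at 48 h and -1.12 ± 0.17 (q = 0.00164; 2.17-fold) at 96 h, and -0.15 ± 0.17 and -0.55 ± 0.17 at 8 and 24 h (q = 0.756 and 0.121).

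APOC1 ran in parallel. It measured 6.06 and 5.98 in UT cells at 8 h, 6.73, 6.44 and 6.53 at 24 h, 6.57 and 6.77 at 48 h and 7.13, 7.12 and 7.03 at 96 h, against 5.79, 5.80 and 5.80, then 5.92 and 5.92, then 5.82 and 6.0, and then 6.13 and 5.95 with vit C. Again no vit C array reached a UT array of its time. The difference was -1.05 ± 0.16 (q = 0.00177; 2.07-fold) at 96 h, where the second probe gave -1.02 (q = 0.0054). It was -0.65 ± 0.16 and -0.76 ± 0.18 at 24 and 48 h (q = 0.0601 and 0.0291), under the size threshold. Over the 4 times together APOC1 was lower by -0.67 ± 0.08 (q = 0.000171) and APOC2 by -0.72 ± 0.09 (q = 0.000144), both below the size threshold of 1. No gene of the 10 was called on this average, from which 1 was removed for opposing probes, against 3.48% of all.

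APOE, the ligand through which lipoproteins are taken up and an acceptor of exported cholesterol, passed the test at no time. It measured 4.53 and 4.40 in UT and 4.00, 3.72 and 4.14 in vit C-treated cells at 8 h. At 24 h it measured 5.60, 5.45 and 5.66 against 5.22 and 5.75, at 48 h 6.59 and 6.63 against 5.48 and 5.85, and at 96 h 7.31, 6.88 and 5.54 against 6.51 and 6.36. The arrays overlapped at 24 and 96 h and not at 8 and 48 h. Differences were -0.51 ± 0.37, -0.09 ± 0.37, -0.94 ± 0.41 and -0.14 ± 0.37, and none passed (q = 0.635, 0.907, 0.267 and 0.836). The value at 96 h had no settled direction: it was -0.66 without UT replicate 3 (q = 0.0459), 0.22 without UT replicate 1 and 0.01 without UT replicate 2, and 0.03 with normexp and 0.10 after quantile normalization.

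LPL, which hydrolyses the triglycerides of lipoproteins, was the member with the largest difference. Its level was 5.99 and 6.19 in UT and 5.96, 6.03 and 5.93 in vit C-treated cells at 8 h, and 6.48, 6.17 and 6.24 against 5.81 and 6.54 at 24 h. At 48 h it was 6.59 and 6.84 against 5.80 and 6.02, and at 96 h 5.77, 5.78 and 6.28 against 4.29 and 4.32. The groups overlapped at 8 and 24 h and were apart at 48 and 96 h. The difference was -1.64 ± 0.23 at 96 h (q = 0.000909; 3.12-fold) and -0.80 ± 0.25 at 48 h (q = 0.104). The call at 96 h held when any of the 5 arrays was left out, with values of -1.73 to -1.47. Both arrays of the lower group were on the slide that no other group shared.

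LIPA and NPC2 act in the same organelle: LIPA frees cholesterol from its esters in the lysosome, and NPC2 carries it to the lysosomal membrane. Both were called lower at 48 h. NPC2 measured 7.34 and 7.66 in UT and 7.50, 7.47 and 7.65 in vit C-treated cells at 8 h, then 7.83, 7.64 and 7.67 against 7.10 and 7.25 at 24 h, 7.27 and 7.26 against 6.14 and 6.08 at 48 h, and 6.93, 7.03 and 6.76 against 6.49 and 6.39 at 96 h. The groups overlapped at 8 h and were apart at the later times, most so at 48 h. The difference at 48 h was -1.15 ± 0.18 (q = 0.00411; 2.22-fold), and -0.54 ± 0.17 and -0.46 ± 0.17 at 24 and 96 h (q = 0.121 and 0.0771).

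LIPA measured 6.34 and 6.57 in UT and 6.45, 6.55 and 6.36 in vit C-treated cells at 8 h, 6.93, 6.58 and 6.49 against 5.93 and 5.94 at 24 h, 5.17 and 5.32 against 4.14 and 4.06 at 48 h, and 5.21, 5.12 and 5.75 against 4.86 and 4.76 at 96 h. The groups overlapped at 8 h and were apart afterwards. The difference was -1.14 ± 0.23 at 48 h (q = 0.0149; 2.20-fold), -0.73 ± 0.21 at 24 h (q = 0.0955) and -0.55 ± 0.21 at 96 h (q = 0.0917).

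OSBPL5 encodes an oxysterol-binding protein-related carrier that moves lipids between membranes, and it was called lower at 24 and 48 h. It measured 2.06 and 1.99 in UT and 1.25, 1.29 and 1.65 in vit C-treated cells at 8 h, 0.97, 0.88 and 1.10 against -0.07 and -0.11 at 24 h, 1.35 and 1.15 against -0.09 and 0.13 at 48 h, and 1.78, 2.02 and 1.15 against 0.95 and 0.85 at 96 h. At all 4 times every vit C array lay below every UT array. Differences were -0.63 ± 0.23 (q = 0.265), -1.07 ± 0.23 (q = 0.0333; 2.10-fold), -1.23 ± 0.25 (q = 0.0167; 2.35-fold) and -0.75 ± 0.23 (q = 0.0457), the last under the size threshold. The average over the 4 times, -0.92 ± 0.12 (q = 0.000254), was the largest average of the 10 genes.

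SOAT1 and the exporters showed no called difference. SOAT1 measured 1.02 and 1.34 in UT and 0.95, 1.08 and 1.02 in vit C-treated cells at 8 h, 1.49, 1.08 and 0.92 against 0.84 and 1.09 at 24 h, and 1.36 and 1.49 against 1.29 and 1.16 at 48 h. SOAT1 differed by -0.16 ± 0.20, -0.20 ± 0.20, -0.20 ± 0.22 and -0.63 ± 0.20 (q = 0.768, 0.587, 0.803 and 0.0499), the last with UT at 2.02, 1.90 and 2.27 and vit C at 1.34 and 1.51. Its other probes gave -0.10 and -0.23 at 96 h. ABCA1, which loads cholesterol on lipid-poor apolipoproteins, differed by -0.07 ± 0.26, 0.13 ± 0.28 and 0.18 ± 0.26 at 24, 48 and 96 h (q = 0.895, 0.963 and 0.695). The 95% intervals of this brightest probe ran from -0.62 to 0.48, -0.48 to 0.73 and -0.37 to 0.73 and left out a change of 2-fold. Those of the next probe, -1.67 to 0.10, -0.77 to 1.17 and -0.49 to 1.27, and of the dimmest each held one, so a change of that size in ABCA1 cannot be set aside. At 8 h its probes opposed each other, the brightest at -0.40 and the dimmest, which was well above background on no array of either group, at 1.55. ABCG1, the exporter to mature lipoproteins, differed by -0.71 ± 0.50, -0.59 ± 0.50, -0.17 ± 0.54 and 0.14 ± 0.50 (q = 0.616, 0.503, 0.998 and 0.876), with intervals wide enough to hold a change of 2-fold. The first of these values compares signals at background, since ABCG1 was well above it on 1 of 2 UT and on none of the 3 vit C arrays at 8 h.

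The calls rested on few arrays. OSBPL5 at 24 h was lost on leaving out any of the 5 arrays (-1.13 to -1.01). At 48 h LIPA (-1.21 to -1.06) and OSBPL5 (-1.34 to -1.12) were lost on leaving out any of the 4 arrays, APOC2 without UT replicate 2 (-1.01, q = 0.0766), and NPC2 stayed called throughout (-1.18 to -1.12). At 96 h APOC1 was lost without vit C replicate 2 (-0.96, q = 0.0395), and APOC2 and LPL stayed called whichever array was left out. After quantile normalization neither APOC1 (-0.83) nor APOC2 (-0.94) was called at 96 h, and APOC1 was not with normexp background correction or with the percentile over detected probes (-0.96 in both). With the slide as a fixed block, which leaves 1 array of vit C at 48 h, no member was called at 24 or 48 h, where 20 and 138 genes of all were. The values for APOC2, LIPA, NPC2 and OSBPL5 at 48 h were then -0.94, -1.32, -1.09 and -1.15 (q = 0.372, 0.268, 0.261 and 0.444), while those of APOE at 8 and 24 h turned to 0.58 and 1.01, that of APOE at 48 h went from -0.94 to -0.03, and those of ABCG1 at 8, 24 and 48 h turned to 1.10, 1.22 and 1.81 (q of 0.412 and above). Differences between the vit C effects of the 4 times passed for none of the 10 genes, against 1.35% of all genes, and LPL came nearest (q = 0.0705). Over the times 8, 24 and 48 h none passed either, with 0.161% of all genes.

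How did the genes move with time within each treatment? The UT and vit C courses were compared with their own arrays at 8 h. The UT course shares its arrays with the vit C against UT comparisons above, so the 2 kinds of comparison are not independent of each other. In UT cells ABCA1 was called higher and OSBPL5 lower at 24 h, where 2.63% of all genes were called, 1.37% higher and 1.26% lower. At 48 h ABCA1, ABCG1 and APOE were higher and LIPA lower (8.89% of all called, 5.54% higher and 3.36% lower). At 96 h ABCA1, ABCG1, APOE and APOC1 were higher and LIPA lower (16.1%, 8.9% and 7.16%). In vit C-treated cells ABCA1 and APOE were called higher and OSBPL5 lower at 24 h (5.62% of all called, 2.93% higher and 2.69% lower). At 48 h ABCA1, ABCG1 and APOE were higher and LIPA, NPC2 and OSBPL5 lower (13.1%, 8.14% and 4.96%), and at 96 h ABCA1, ABCG1 and APOE were higher and LIPA, NPC2 and LPL lower (29%, 10.9% and 18.1%). In each course 1 of the 10 genes was removed at 48 h for opposing probes.

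**Figure D3:**
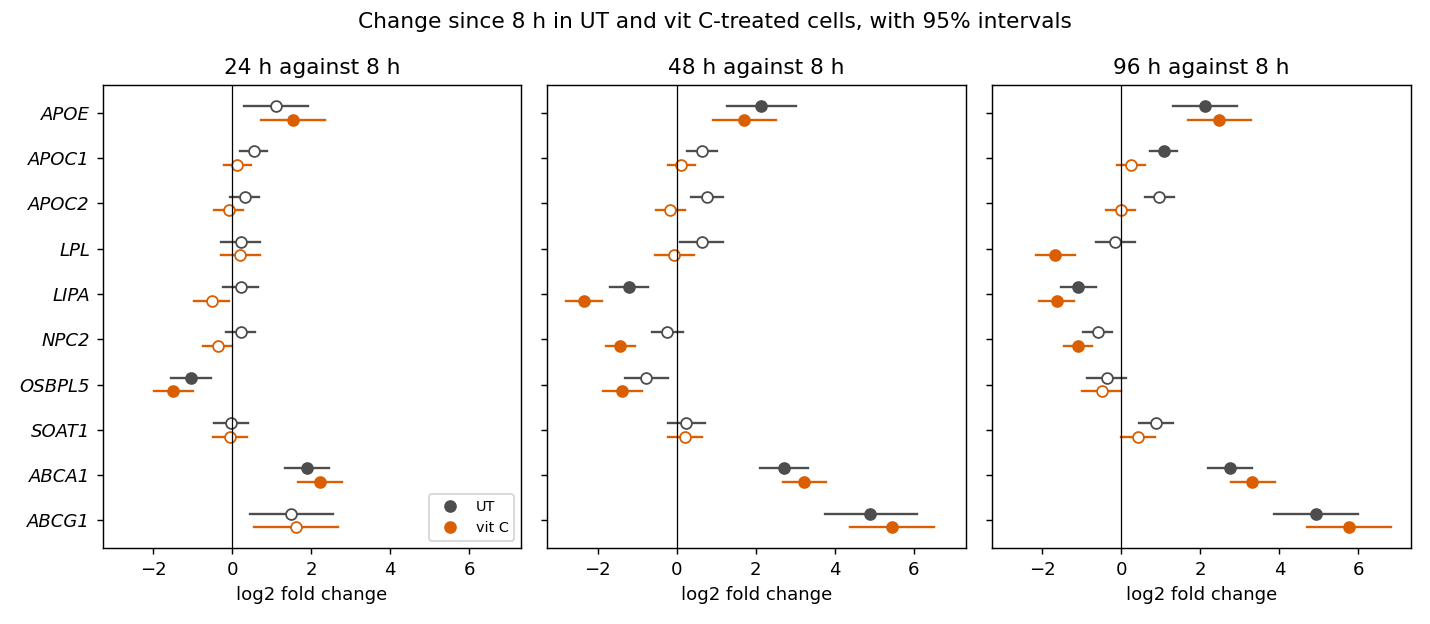
Log2 fold change against 8 h (x axis) at 24, 48 and 96 h for each gene in UT (grey) and vit C-treated (orange) cells, with the 95% interval as a line and filled circles for called changes. ABCG1, ABCA1 and APOE rose in both courses, and APOC1 and APOC2 reached 1.07 and 0.96 at 96 h in UT against 0.25 and -0.01 with vit C.

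The exporters rose most. ABCA1 measured -0.19 and -0.41 in UT cells at 8 h, 1.92, 1.71 and 1.15 at 24 h, 2.51 and 2.32 at 48 h, and 2.75, 2.06 and 2.56 at 96 h. With vit C it measured -0.59, -0.49 and -0.99, then 1.46 and 1.59, then 2.58 and 2.51, and then 2.51 and 2.75. No array at 24 h or later fell as low as those at 8 h. The rise was 1.89 ± 0.26, 2.71 ± 0.28 and 2.75 ± 0.26 in UT cells (3.71-, 6.54- and 6.73-fold; q = 0.000907, 2.39e-05 and 3.15e-06) and 2.22 ± 0.26, 3.23 ± 0.26 and 3.32 ± 0.26 with vit C (4.66-, 9.38- and 9.99-fold; q = 0.000112, 9.56e-07 and 3.92e-07).

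ABCG1 was near background at 8 h, measured on 1 of 2 UT arrays and on none of the 3 vit C arrays. Its level was -4.96 and -5.42 in UT cells at 8 h, -3.41, -3.36 and -4.31 at 24 h, -0.10 and -0.47 at 48 h, and 0.93, -0.72 and -1.03 at 96 h. It was -5.59, -6.62 and -5.50 with vit C at 8 h, -4.18 and -4.38 at 24 h, -0.29 and -0.62 at 48 h, and -0.16 and -0.10 at 96 h. Both courses stepped up between 24 and 48 h. The rise over 8 h in UT cells was 4.90 ± 0.54 and 4.92 ± 0.50 at 48 and 96 h (q = 4.14e-05 and 6.38e-06), with 1 of the 2 arrays at 8 h not well above background. With vit C the bounds on the rise of ABCG1 were at least 22.9-fold for 48 h and at least 28.7-fold for 96 h (q = 3.24e-06 and 1.07e-06), where each bound sets the bright arrays against the dimmest probes well above background on each array at 8 h. The size of the ABCG1 rise depended on the background correction. With normexp it was 2.69 and 2.70 on the log2 scale in UT cells and 2.52 and 2.70 with vit C, still called but smaller than the bounds, and with the slide as a fixed block the UT value at 96 h was 6.13. APOE rose by 2.14 ± 0.41 and 2.11 ± 0.37 at 48 and 96 h in UT cells (4.41- and 4.32-fold; q = 0.00344 and 0.000903) and by 1.53 ± 0.37, 1.71 ± 0.37 and 2.48 ± 0.37 at 24, 48 and 96 h with vit C (2.89-, 3.27- and 5.58-fold; q = 0.0232, 0.00529 and 0.000197). The vit C values of APOE at 24 h lost the call without vit C replicates 1 or 2 at 8 h (1.56 and 1.41) or replicate 2 at 24 h (1.26) and with the replicate block (1.41), and that at 48 h without replicate 2 at 48 h (1.53, q = 0.064).

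LIPA was called lower at 48 and 96 h in both courses, and NPC2 at these times with vit C. LIPA changed by -1.21 ± 0.23 at 48 h and -1.09 ± 0.21 at 96 h in UT cells (q = 0.00312 and 0.00161), and by -2.35 ± 0.21 and -1.64 ± 0.21 with vit C (5.10- and 3.12-fold lower; q = 2.55e-06 and 4.18e-05). NPC2 changed by -0.24 ± 0.18 and -0.60 ± 0.17 in UT cells (q = 0.436 and 0.0201) and by -1.43 ± 0.17 and -1.10 ± 0.17 with vit C (q = 3.26e-05 and 0.000221). The vit C call of NPC2 at 96 h was lost after quantile normalization (-0.80). The UT change of LIPA at 96 h dropped under the size threshold without UT replicate 2 at 8 h (-0.98) or replicate 2 at 96 h (-0.97). OSBPL5 changed by -1.04 ± 0.23 at 24 h in UT cells (q = 0.0262), a call that was lost without any of 4 of the 5 arrays, and by -1.49 ± 0.23 and -1.38 ± 0.23 at 24 and 48 h with vit C (q = 0.00114 and 0.000751). At 96 h its values were -0.37 ± 0.23 and -0.49 ± 0.23 (q = 0.3 and 0.109). LPL measured a change of -0.15 ± 0.23 in UT cells at 96 h (q = 0.692) and one of -1.67 ± 0.23 with vit C (q = 9.04e-05; 3.18-fold lower).

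APOC1 was called higher over time in UT cells, and APOC2 in neither course. In UT cells APOC1 stood 0.54 ± 0.16, 0.65 ± 0.18 and 1.07 ± 0.16 above 8 h at 24, 48 and 96 h, and the last was called (q = 0.00023). APOC2 stood 0.31 ± 0.17, 0.77 ± 0.19 and 0.96 ± 0.17 above (q = 0.353, 0.0155 and 0.000884), just under the size threshold, and was called at 1.05 without UT replicate 3 at 96 h. With vit C the same changes were 0.12 ± 0.16, 0.11 ± 0.16 and 0.25 ± 0.16 for APOC1 and -0.09 ± 0.17, -0.16 ± 0.17 and -0.01 ± 0.17 for APOC2, none of which passed. The test of the difference between the 4 vit C effects gave q = 0.21 for APOC1 and 0.124 for APOC2, so the difference itself did not pass.

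Ordered by group mean, the 8 groups fell into different series for different genes. For APOC2 the 4 vit C groups were lowest, from 4.95 to 5.10, with neighbours that overlapped, and the UT groups followed in order of time. For LPL, vit C at 96 h stood alone at 4.30, UT at 48 h was highest at 6.72, and the 6 groups between were 5.91 to 6.30 with overlapping neighbours. For LIPA and NPC2 the lowest group was vit C at 48 h, at 4.10 and 6.11, followed by vit C at 96 h, and the highest was UT at 24 h, at 6.67 and 7.71. For ABCA1 the groups at 48 and 96 h lay within 2.42 to 2.63 and overlapped, whatever the treatment.

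Which of the genes varied together? Over the 19 arrays, which share slides, times and the scale of each array, the highest Pearson correlations between members were 0.94 for APOC1 with APOC2, 0.93 for LIPA with NPC2, 0.91 for ABCA1 with ABCG1, 0.89 for APOE with ABCG1 and 0.88 for APOE with ABCA1. Of the neighbours on chromosome 19, APOE correlated with APOC1 at 0.67 and with APOC2 at 0.61. LIPA and ABCG1 stood opposed at -0.82. Among 17291 genes well above background on all arrays, APOC1 and APOC2 were each the gene most like the other (0.943). The genes most like ABCA1 by name were ITGA1 (0.971), an integrin chain, and SNTB1 (0.970), those most like ABCG1 TBX2 (0.967), YPEL4 (0.966) and FADS1 (0.962), a fatty acid desaturase, and those most like LPL LONRF2 (0.950), NPY1R (0.948), a neuropeptide Y receptor, and RASL11B (0.933). NPC2 was most like C1orf122 (0.938) and had CCL5 (0.935), a chemokine, in its first 3, LIPA was most like LOC201164 (0.961), OSBPL5 like SLC22A18 (0.940), APOE like ZNF219 (0.962) after an unnamed transcript, and SOAT1 like TRAF3IP1 (0.935) after an unnamed transcript. These are descriptions of 19 arrays and carry no test.

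**Figure D4:**
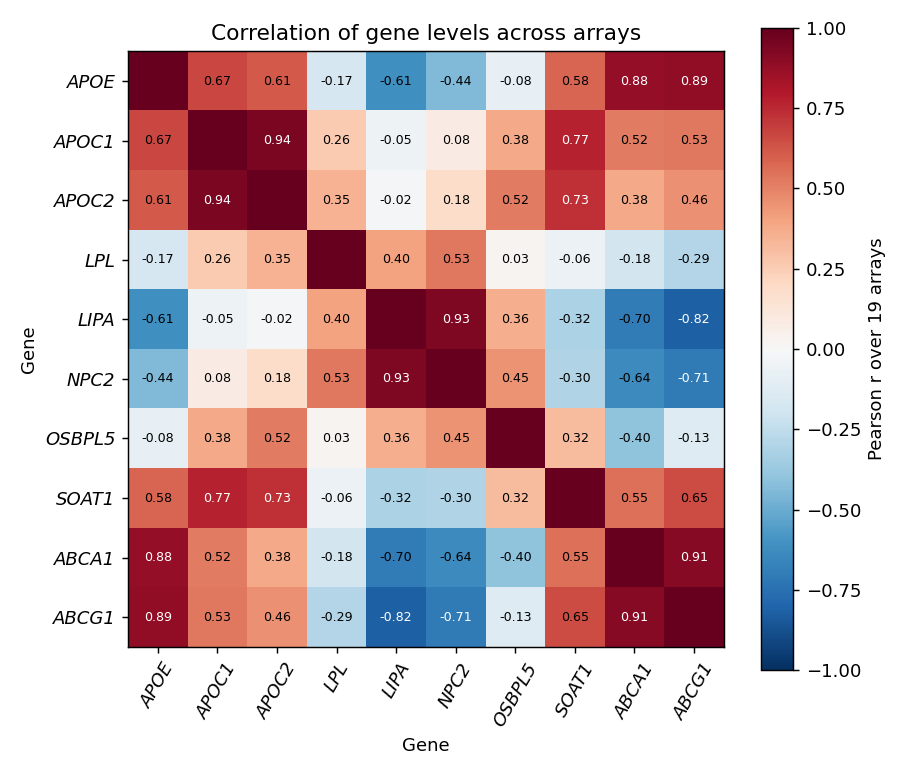
Pearson correlation of the levels of each pair of genes over the 19 arrays, from -1 (blue) to 1 (red). The blocks that stand out are APOC1 with APOC2 (0.94), LIPA with NPC2 (0.93), and ABCA1 with ABCG1 and APOE (0.91, 0.89 and 0.88), and LIPA opposes ABCG1 (-0.82).

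The wider pathway was read from lists of 86 further genes, 84 of them on the array. Against UT cells, none was called at 8 h, 1 higher and 1 lower at 24 h, 3 higher and 2 lower at 48 h, and 2 higher and 9 lower at 96 h, of 66, 74, 69 and 69 genes tested. The 9 of 69 lower at 96 h stand beside 10% of all genes called lower there, and the 3 of 69 higher at 48 h beside 2.1%. ANGPTL4, the secreted inhibitor of LPL, was lower by -1.56 ± 0.28 at 24 h (q = 0.0135) and -1.59 ± 0.30 at 48 h (q = 0.0117), calls that were lost without either vit C replicate at 24 h and without UT or vit C replicate 1 at 48 h (with any 1 array left out, -1.65 to -1.46 and -1.81 to -1.37). The ANGPTL4 values came down to -0.93 and -0.76 with normexp and to -0.79 and -0.97 with the slide as a fixed block, and were not called there. APOL3, an interferon-inducible apolipoprotein, was higher by 1.08 ± 0.16 (q = 0.00416) and 1.24 ± 0.17 (q = 0.00178). The APOL3 calls were lost under 5 of 18 and 4 of 17 alternatives, with normexp at 0.74 and 0.88. The slide as a fixed block was among these alternatives at both times. At 48 h PLIN2 (ADFP on the array), the coat protein of lipid droplets, was higher by 1.13 ± 0.22 (q = 0.0125) and PPARG, the fatty acid-sensing nuclear receptor, by 1.11 ± 0.26 (q = 0.0282), both calls being lost on leaving out 3 of the 4 arrays, either UT replicate or vit C replicate 1 (0.98 to 1.28 and 0.83 to 1.39). With the slide as a fixed block their values were 1.74, not called, and 1.97. None of the 9 other efflux transporter and oxysterol enzyme genes was called at 8, 24 or 48 h, and 2 were lower at 96 h. The shares of all genes were 0.553%, 1.67% and 3.64% called at 8, 24 and 48 h and 10% lower at 96 h.

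Among the receptors for modified lipoproteins, MSR1 (scavenger receptor A) was lower by -1.09 ± 0.28 and -1.07 ± 0.26 at 48 and 96 h (q = 0.0474 and 0.0259), and OLR1, the LOX-1 receptor, by -1.15 ± 0.30 at 96 h (q = 0.0334). The call of MSR1 was lost on leaving out any of the 4 arrays at 48 h (-1.17 to -1.01) and 3 of the 5 at 96 h, UT replicate 3 and either vit C replicate (-1.23 to -0.83), and that of OLR1 on leaving out any of the 5 but UT replicate 2 (-1.38 to -0.96). STAB1, a further scavenger receptor, was higher by 3.19 ± 0.43 at 96 h (q = 0.000699), and by 1.90 with normexp background correction, where it was not called. The other genes lower at 96 h included APOC4, a neighbour of APOC1 and APOC2 in the cluster, by -1.29 ± 0.22 (q = 0.00372), APOA1 by -2.09 ± 0.44 (q = 0.0142), the exporter family member ABCA6 by -1.80 ± 0.33 (q = 0.00546), CH25H, which makes 25-hydroxycholesterol, by -1.33 ± 0.23 (q = 0.00403), and OSBPL6, a relative of OSBPL5, by -1.41 ± 0.44 (q = 0.047). CETP, the cholesteryl ester transfer protein, was higher by 1.52 ± 0.46 (q = 0.0424), a direction that turned under normexp background correction (-0.12). OSBPL6 lost its call under 14 of 17 alternatives, among them leaving out any array but UT replicate 3 (-1.69 to -0.97), and CETP under 10 of 17, among them leaving out UT replicate 1 or either vit C replicate (0.87, 1.48 and 1.56). Without vit C replicate 1 the calls of APOC4 (-1.21), APOA1 (-1.46) and ABCA6 (-1.60) were lost. With normexp APOA1 and ABCA6 were still called, at -1.15 and -1.12. The endothelial lipase gene LIPG measured -1.31 ± 0.37 at 48 h (q = 0.0699) and SOAT2 -1.18 ± 0.76 (q = 0.513), with SOAT2 well above background on 2 UT arrays and 1 vit C array at that time.

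Genes known as LXR targets were counted over time as a list of 9. In UT cells 1, 4 and 5 of the 9 were called higher at 24, 48 and 96 h, and with vit C 3, 3 and 4, with none lower in either. The shares of all genes called higher were 1.37%, 5.54% and 8.9% in UT cells and 2.93%, 8.14% and 10.9% with vit C. Named here after their values were seen, the list genes called were NR1H3 at 24 h in both treatments, SREBF1, SCD, SMPDL3A, MYLIP and APOC4. SREBF1, the master regulator of fatty acid synthesis, rose by 1.50 ± 0.23 and 1.69 ± 0.21 at 48 and 96 h in UT cells (q = 0.000592 and 3.64e-05) and by 2.41 ± 0.21 and 2.28 ± 0.21 with vit C (q = 1.99e-06 and 1.79e-06). SCD, the stearoyl-CoA desaturase, rose by 1.93 ± 0.34 and 1.91 ± 0.31 in UT cells (q = 0.002 and 0.000473) and by 2.72 ± 0.31 and 2.67 ± 0.31 with vit C (q = 2.65e-05 and 1.94e-05). SMPDL3A, a phosphodiesterase, rose by 1.53 ± 0.36 and 2.29 ± 0.32 in UT cells (q = 0.0126 and 0.000138) and by 1.81 ± 0.32 and 2.67 ± 0.32 with vit C (q = 0.00124 and 2.81e-05). Its UT call at 48 h was lost on leaving out any of the 4 arrays (1.45 to 1.61). NR1H3, the LXR alpha gene, rose by 1.33 ± 0.19 at 24 h in UT cells (q = 0.00157) and by 2.01 ± 0.19 with vit C (q = 2.59e-05). NR1H3 was not called at 48 or 96 h in either treatment. Under the alternatives its change at 96 h ran from -0.48 to -0.18 in UT cells and from -0.17 to 0.07 with vit C. APOC4 was called in UT cells at 96 h (1.44 ± 0.22; q = 0.000248). Against UT cells of the same time, none of the 9 LXR targets was called at 8, 24 or 48 h, and APOC4 alone, lower, at 96 h. Of all genes tested, 0.553%, 1.67%, 3.64% and 12.8% were called at 8, 24, 48 and 96 h, and 10% were lower at 96 h.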

How the data were processed

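RNA of 19 samples of 1 cell line was hybridized in 1 colour to Agilent arrays. The authors deposited scanner files that give the processed signal intensity of every spot (Feature Extraction 10.5.1.1 per the file headers), and a table of log2 values that the authors had shifted to the 75th percentile of each array. Here log2 of the processed intensity minus the 75th percentile of the array was computed over non-control spots, and spots of a probe were averaged. All 8 groups entered 1 limma fit (R 4.3.3, limma 3.58.1), with contrasts for vit C against UT at each time, time against 8 h, the average vit C effect and its differences between times. Genes whose probes opposed each other were removed before Benjamini-Hochberg adjustment. Calls needed a log2 change of at least 1 and a q of at most 0.05. Errors beside differences are standard errors.

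Samples were grouped by their labels. The text names the 10 genes by their brightest probe, LIPG, MSR1 and SOAT2, at most the 4 largest called and detected genes of each pathway list and comparison, and the 3 most correlated genes. The genes, lists and tests were chosen with earlier results of these data known. The number of arrays limits the precision. Scripts were tested on simulated data. The alternatives tried were another test, background correction, scaling, filter, probe rule, sample set, slide or replicate block, and leaving out each array. Correlations of deviations between samples with the same replicate number ran from -0.34 to 0.13, so the numbers were not taken to pair samples. LPL and ABCG1 sequences are not used here.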

Additional observations from a re-analysis of the deposited data

How the results depend on the processing

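The 8 calls of the 10 genes in vit C against UT gave 137 values under alternatives, of which 43 lost the call, and none of the 8 was called under every one. OSBPL5 at 24 h was lost in 11 of 18, LIPA and OSBPL5 at 48 h in 7 of 17 each, and LPL at 96 h in 2 of 17. Their 26 calls over time lost 33 of 458 values, and 10 were never lost. No called value of the 10 genes reversed, 7 values gained a call and 50 values of genes not called changed sign. Of the wider pathway, 15 named genes were run in vit C against UT and the 9 LXR targets over time, and the rest were not. The 16 calls of the named genes lost 101 of 274 values, and 19 of the 20 calls of LXR targets 25 of 335. The other, MYLIP in UT cells at 48 h, was called by a dimmer probe than the one followed here and was not run. A single called value reversed, CETP at 96 h, from 1.52 to -0.12 with normexp background correction. The UT rise of APOE at 96 h was 2.84 with the slide as a fixed block, and that of ABCA1 at 24 h 2.54 by the mean of all probes. The limits are the 2 or 3 arrays per group, the slides, and for ABCG1 a signal near background at 8 h. A group left with 1 array takes its spread from the rest of the fit, on the assumption that it varies as they do.

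The number of the 10 genes called in vit C against UT was 1, 4 and 3 at 24, 48 and 96 h. It became 0 at all 3 times with the methods' t-test after Benjamini-Hochberg and with only the groups compared, 0 at 24 h with normexp and with the slide as a random block, 0 at 24 and 48 h with the slide as a fixed block, and 1 at 96 h after quantile normalization. Leaving out each array gave 0 to 0 at 8 h, 0 to 0 at 24 h, 1 to 2 at 48 h, 2 to 3 at 96 h and 0 to 0 for the average. For differences between the 4 effects the count rose from 0 to 2 with normexp and 1 with quantile normalization, and was 0 to 2 on leaving out arrays (0 to 1 over the first 3 times). For UT at 24 h against 8 h it was 2, and became 0 and 4 with the methods' t-test after and before adjustment, and 1 with only the groups compared. For UT at 48 h it went from 4 to 0 with the adjusted t-test, for UT at 96 h from 5 to 1 with that test and 2 with only the groups compared, and for vit C at 24 h from 3 to 0 with that test. Leaving out arrays gave 1 to 2, 4 to 4 and 4 to 6 in UT cells at 24, 48 and 96 h, and 2 to 3, 5 to 6 and 6 to 6 with vit C.

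With the replicate block the count was 0 at 24 h for vit C against UT and 1 for UT at 24 h, and 4 and 3 at 48 and 96 h as before. For vit C at 24 h it went from 3 to 2, APOE losing its call, and for vit C at 96 h from 6 to 7, SOAT1 gaining one. That SOAT1 call came from a dimmer probe than the one followed here, which reached at most 0.63 under any alternative. The calls over all genes with the replicate block became 43, 430, 783 and 1205 at 8, 24, 48 and 96 h.

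Over all genes the calls were 139, 437, 926 and 3363 at 8, 24, 48 and 96 h. Alternatives other than leaving out arrays gave 9 to 1298, 0 to 1320, 0 to 1528 and 0 to 3729, the zeros with the adjusted t-test or only the groups compared, and leaving out arrays 14 to 83, 92 to 368, 281 to 536 and 479 to 5965. The average effect gave 917 (241 to 1123), its differences 418 (163 to 691) and 50 (15 to 134), the UT courses 688 (0 to 1196), 2357 (1 to 2737) and 4260 (264 to 4507), and the vit C courses 1473 (0 to 1877), 3549 (1736 to 3786) and 7875 (4054 to 9064). The share of calls that were higher moved at 8 h from 59.7% to 91.9% with normexp, and at 24 h from 49.9% to 61.9% with normexp, 65.6% with quantile normalization and 62.1% without dim probes. With only the groups compared it was 74.9% at 8 h and 83.1% at 24 h, and at 8 h it was 90.9% of the 11 calls by the adjusted t-test and 77.8% of the 9 with the slide as a fixed block. At 48 h it went from 57.9% to 46.4% with the slide as a fixed block, and at 96 h from 21.4% to 35.9% with the replicate block. The cause of these changes was not tested.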
